A study of Mus musculus with 20 samples.

Results

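The 10 integrin genes described here are Itgam, Itgax, Itgal, Itga4, Itga5, Itga6, Itgav, Itgb1, Itgb2 and Itgb7, each found by its symbol among the 24421 genes of the count table of murine bone marrow-derived dendritic cells (BMDCs). They were chosen by name and without a filter on their response, but with earlier results of these data known. All 10 passed the filter on low counts, as did 12465 genes in all, and the table held 28 integrin subunit genes in total.

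BMDCs were grown from the femoral and tibial marrow of wild-type C57BL/6 mice for 8 days in RPMI with 40 ng/mL murine GM-CSF, and the medium was changed on day 3 and day 6. There were 20 bulk RNA-seq libraries in 4 groups, taken as 1 per group from each of 5 mice, which are lettered A to E here. DMSO Ova cells received the solvent and soluble ovalbumin, and DMSO IC cells the solvent and ovalbumin complexed with rabbit IgG (immune complexes, IC). iBET Ova and iBET IC cells received 3.3 µM I-BET151 (iBET), an inhibitor of the BET family of acetyl-lysine readers, with the same stimuli for 4 hours. The labels give DMSO at 5% for the control groups and say that drug and stimulus were added together, whereas the methods of the study place the drug before the stimulus. The labels say that cells were sorted into lysis buffer and name no gate, whereas the methods describe lysis in the culture, so whether CD11c or CD11b was used to select cells is not known. No group without ovalbumin was analysed here.

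Integrins are adhesion receptors built from an α and a β subunit, and a subunit reaches the cell surface only with a partner. The β2 subunit (Itgb2, CD18) is restricted to leukocytes and pairs with αM (Itgam, CD11b), αX (Itgax, CD11c) and αL (Itgal, CD11a), to form complement receptors and LFA-1, which bind complement fragments, fibrinogen and ICAMs. The β1 subunit (Itgb1) pairs with α4 (Itga4), α5 (Itga5) and α6 (Itga6), whose ligands are VCAM-1 and fibronectin, fibronectin, and laminins. The β7 subunit (Itgb7) pairs with α4 in the gut-homing receptor for MAdCAM-1 and with αE, and αv (Itgav) pairs with several β subunits to bind vitronectin, fibronectin and latent TGF-β. In dendritic cells CD11c and CD11b serve as identity markers, and talin, kindlin-3 and the GTPase Rap1 switch the receptors to the binding state. RNA levels say nothing of that switch or of protein at the surface.

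Library totals ranged from 16447491 to 29245150 counts with a median of 21764663, so the integrin genes were counted at between 358 and 75227 reads per library. The libraries of mice A and B stood apart from those of mice C, D and E in each of the 4 groups. The 15 dendritic cell markers, all of them present, summed to between 2731.3 and 3888.9 counts per 1000000 counts of the TMM-scaled library (CPM) in mice A and B and to between 5413.9 and 8111.8 CPM in the others, with no overlap. The sum of the 13 macrophage and monocyte markers went the other way, at 16043.8 to 21276.3 CPM in mice A and B and 10538 to 17182.3 CPM in the others, without overlap inside any group. The sum of the 12 neutrophil markers present was likewise higher in mice A and B, at 733.5 to 940.9 CPM against 450.6 to 594.8 CPM. Elane was at no more than 3 counts in every library. Single genes led these sums, namely Cd74 (2661.4 CPM in DMSO Ova), Lyz2 (11991.5 CPM) and Mmp8 (588.4 CPM). The next neutrophil marker, Lcn2, was at 20.3 CPM. The sets of mice were compared by these sums and not marker by marker. Markers of T and NK cells summed to at most 1.65 CPM and those of B cells to at most 0.772 CPM. In bulk RNA, a change in the share of a cell type and a change in RNA per cell cannot be told apart.

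The windows of RefSeq (GRCm38.p6) from 250 bases before to 50 bases after the start site were found for 7 of the 10 genes, and not for Itgal, Itgb2 and Itga6. They are shown for a pair of neighbouring genes that were abundant in every group (Itgam, Itgax), for a gene that fell under iBET (Itga4) and for one that rose with both stimuli in each fit (Itgav). Capitals mark matches, on either strand, to GAGGAA (the core bound by PU.1-type ETS factors), TGANTCA (AP-1), CACGTG (E-box), TGTGGT (RUNX) or GGGCGG (GC box). All 4 windows lie on the plus strand and are written 5′ to 3′ on it, as chr7:128062390-128062689, chr7:128129300-128129599, chr2:79255176-79255475 and chr2:83724147-83724446.
Itgam: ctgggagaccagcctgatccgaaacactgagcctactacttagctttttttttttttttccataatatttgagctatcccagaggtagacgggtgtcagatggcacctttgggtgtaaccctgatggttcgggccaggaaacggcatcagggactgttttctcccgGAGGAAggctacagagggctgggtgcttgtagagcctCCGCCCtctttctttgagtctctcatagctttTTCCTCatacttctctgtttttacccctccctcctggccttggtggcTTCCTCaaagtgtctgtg
Itgax: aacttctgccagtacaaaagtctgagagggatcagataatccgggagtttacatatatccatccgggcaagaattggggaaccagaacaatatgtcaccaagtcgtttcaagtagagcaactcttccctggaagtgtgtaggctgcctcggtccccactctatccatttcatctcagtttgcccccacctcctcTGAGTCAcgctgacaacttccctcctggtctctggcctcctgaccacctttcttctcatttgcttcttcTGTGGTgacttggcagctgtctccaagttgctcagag
Itga4: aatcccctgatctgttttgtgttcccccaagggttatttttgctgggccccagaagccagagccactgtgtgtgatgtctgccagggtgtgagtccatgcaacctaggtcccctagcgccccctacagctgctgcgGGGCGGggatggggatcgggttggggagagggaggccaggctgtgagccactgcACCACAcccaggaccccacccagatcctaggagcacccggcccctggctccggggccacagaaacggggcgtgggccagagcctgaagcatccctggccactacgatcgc
Itgav: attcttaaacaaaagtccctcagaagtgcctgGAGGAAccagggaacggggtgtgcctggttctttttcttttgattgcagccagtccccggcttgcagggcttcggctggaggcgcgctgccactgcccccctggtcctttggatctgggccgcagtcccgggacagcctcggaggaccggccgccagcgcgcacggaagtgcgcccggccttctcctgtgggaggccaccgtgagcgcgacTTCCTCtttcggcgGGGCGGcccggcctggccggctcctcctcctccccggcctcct
The ETS core was found 3 times at Itgam, 2 times at Itgav and 0 times at Itgax and Itga4, and it is in 28.3% of 32851 RefSeq windows. The AP-1 motif was matched only at Itgax among the 7 windows (7.81% of all windows), the RUNX motif at Itgax and Itga4 (16.8%), the GC box at all but Itgax and Itgb7 (35.7%) and the E-box at none (7.15%). The windows also differed in CpG content. Itgav and Itgb1 held 24 and 27 CpG dinucleotides, Itga5 13, Itga4 10, Itgam 6, and Itgax and Itgb7 5 each, beside a median of 7 over all windows. A match describes letters only, and no binding was measured here.

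Levels were compared between genes as CPM per kilobase of exon (RPKM). Transcripts of the β2 family dominated. Itgb2 was the most abundant of the 10 in DMSO Ova at 574.6 RPKM, rank 58 of 23376 genes with a length, and Itgax (408.5 RPKM, rank 96) and Itgam (239.7 RPKM, rank 185) followed. Itgb1 stood at 145.1 RPKM, then came Itgb7 (49.5), Itga5 (23.6), Itgal (21.4), Itgav (8.66), Itga4 (7.06) and Itga6 (3.27).
The ranges of neighbours in that order overlapped in 3 places, between Itgb2 and Itgax, Itga5 and Itgal, and Itgav and Itga4, and did not overlap elsewhere. With the length of the principal transcript in place of all exons, Itgal (27.1 RPKM) stood above Itga5 (26.6 RPKM) in DMSO Ova, while Itgav (13.2) stayed above Itga4 (10.1). The 4 highest genes held their places in all 4 groups. In iBET Ova and iBET IC, Itga5 was below Itgal, and Itga4 overlapped with Itga6, the lowest gene.

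**Figure D1:**
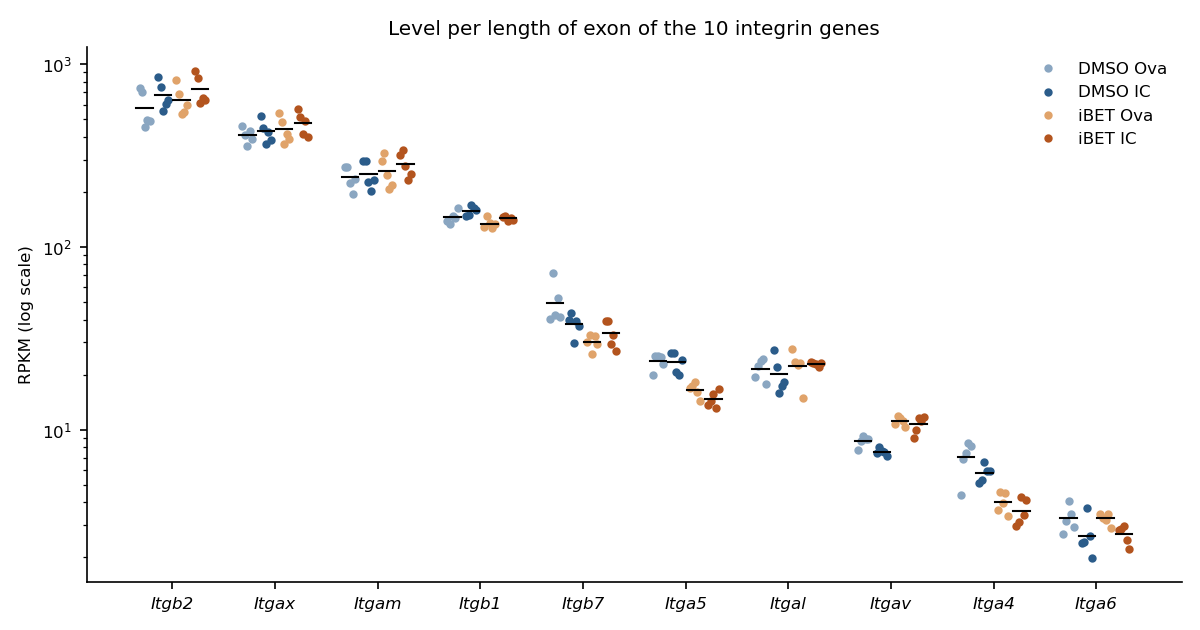
RPKM of the 10 integrin genes on a log axis, ordered by their mean in DMSO Ova, with 1 point per library (5 per group, coloured by group) and a line at the mean of the group. Itgb2, Itgax, Itgam and Itgb1 lie above the other 6 genes in every library, and the iBET libraries of Itga5 lie below all its DMSO libraries.

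Among the transcripts of 18 α subunits, those that pair with β2 (Itgam, Itgax, Itgal and Itgad) made up 93.1% ± 1.02 (SD, n = 5) in DMSO Ova, 93.8% ± 0.53 in DMSO IC, 94.5% ± 0.687 in iBET Ova and 95.2% ± 0.767 in iBET IC, per length. Itgax alone was 55.0% to 56.1% and Itgam 32.2% to 33.4% of α transcripts over the group means. Itgb2 was 69.3% ± 3.74 of the transcripts of 9 β subunits in DMSO Ova and 77.3% ± 1.71 in iBET IC. Itga4 made up 0.966% ± 0.267 of α transcripts in DMSO Ova and 0.513% ± 0.0963 in iBET Ova.

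The first question was whether iBET altered the integrins with each stimulus. With Ova, 1 of the 10 genes rose (Itgav) and 3 fell (Itga4, Itga5, Itgb7), and with IC, 1 rose (Itgav) and 2 fell (Itga4, Itga5), at an adjusted p under 0.05 in the quasi-likelihood test of edgeR. Over all 12465 genes, 27.7% rose and 28.9% fell with Ova, and 27.1% rose and 29.0% fell with IC, so the shares of integrins that fell were near that of all genes and those that rose were below it. The median absolute log2 fold change of the 10 genes was 0.13 with Ova and 0.17 with IC, beside 0.359 and 0.358 over all genes tested. Both comparisons have their own DMSO controls, but the cells of each mouse entered both. With the mouse as a replicate block, 5 integrins were called with Ova, where 68.7% of all genes were called in either direction, and 6 with IC, where 68.0% were.

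**Figure D2:**
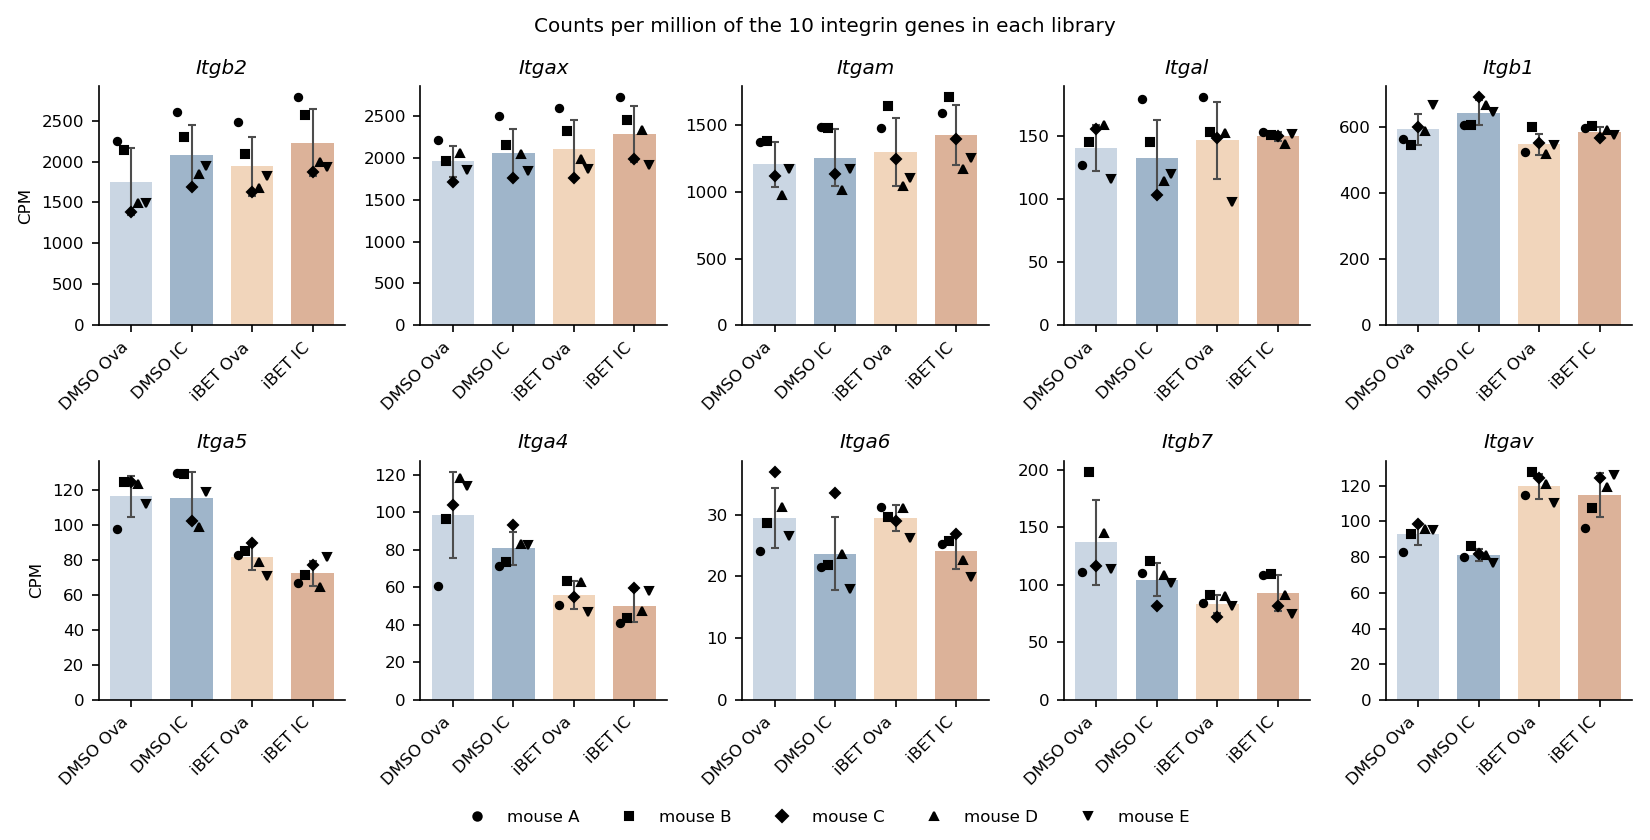
CPM of each integrin gene in the 20 libraries, with 1 symbol per mouse, a bar at the group mean and error bars of 1 SD (n = 5), each axis starting at 0. Within each stimulus, Itgav lies higher and Itga5 lower in every iBET library than in any DMSO library, and mice A and B lie above the other 3 for Itgam and Itgb2 in all 4 groups.

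With all 20 libraries and the 4 groups as the only terms, the β2 family did not pass the edgeR test with either stimulus. Itgb2, the shared β chain (chromosome 10, 77530252 to 77565708, GRCm38), was measured in mice A to E at 2247.2, 2140.9, 1384.9, 1498.5 and 1497.5 CPM in DMSO Ova and at 2487.9, 2093.9, 1629.6, 1672.4 and 1818.6 CPM in iBET Ova. The groups overlapped, and mice differed within a group by more than the groups did. The log2 fold change was 0.15 (SE 0.165, 95% interval -0.20 to 0.50, adjusted p = 0.469) with Ova and 0.10 (SE 0.165, -0.24 to 0.45, adjusted p = 0.612) with IC. When the mouse was a block, the change with Ova was 0.16 (SE 0.0462, adjusted p = 0.00574), a call, with 4 of 5 mice higher, and that with IC was not called (adjusted p = 0.0563).

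Itgam, the α chain of complement receptor 3 (chromosome 7, 128062640 to 128118491), stood at 1372.7, 1376.6, 1120.3, 977.9 and 1172.9 CPM in DMSO Ova and at 1474.9, 1644.1, 1246.7, 1040.0 and 1099.8 CPM in iBET Ova. The groups overlapped and 4 of 5 mice were higher with iBET. The log2 fold change was 0.11 (SE 0.144, adjusted p = 0.53) with Ova and 0.18 (SE 0.144, adjusted p = 0.302) with IC. The latter was called with the mouse as a block (0.18, SE 0.0472, adjusted p = 0.0023), and 5 of 5 mice were higher by 0.097 to 0.303 on the log2 scale.

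Itgax, the α chain named CD11c (chromosome 7, 128129547 to 128150657), ranged from 1717.8 to 2209.7 CPM in DMSO Ova and from 1757.5 to 2601.8 CPM in iBET Ova. Its log2 fold change was 0.10 (SE 0.122, adjusted p = 0.49) with Ova and 0.15 (SE 0.122, adjusted p = 0.313) with IC, and with the block the second was called (adjusted p = 0.0114, 5 of 5 mice higher). Itgal, the α chain of LFA-1 (chromosome 7, 127296260 to 127335138), had log2 fold changes of 0.06 (SE 0.146, adjusted p = 0.742) with Ova and 0.18 (SE 0.146, adjusted p = 0.307) with IC, and its groups overlapped. The intervals of these 4 genes reached from -0.25 to 0.50 with Ova, so a rise or fall within them was not detectable with 5 mice and no block.

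Among the α chains that pair with β1, Itga4 and Itga5 fell and Itga6 did not pass the test. Itga5, the α chain of the fibronectin receptor (chromosome 15, 103344286 to 103366763, minus strand), was at 97.9, 124.8, 124.6, 123.2 and 112.1 CPM in DMSO Ova and at 82.8, 85.4, 89.8, 79.0 and 70.9 CPM in iBET Ova. With IC, it was at 129.6, 129.1, 102.3, 98.7 and 118.6 CPM with DMSO and at 66.9, 71.2, 77.4, 64.8 and 81.8 CPM with iBET. No iBET library reached the lowest DMSO library for either stimulus. The fall was by 0.51 on the log2 scale with Ova (SE 0.0938, adjusted p = 0.000105) and by 0.68 with IC (SE 0.094, adjusted p = 4.58e-06), in 5 of 5 mice each time.

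Itga4, the α chain of the VCAM-1 receptor VLA-4 (chromosome 2, 79255426 to 79333123), was at 61.0, 96.3, 103.8, 118.6 and 113.9 CPM in DMSO Ova and at 50.5, 63.6, 55.1, 62.9 and 46.8 CPM in iBET Ova. Mouse A had the lowest DMSO value, which lay within the iBET range, so these groups overlapped. With IC, DMSO libraries ranged from 71.6 to 93.3 CPM and iBET libraries from 41.3 to 59.9 CPM, with no overlap. The fall was by 0.82 with Ova (SE 0.15, adjusted p = 0.0001) and by 0.69 with IC (SE 0.15, adjusted p = 0.000556), in 5 of 5 mice. In mice A and B alone, a small set formed after the data were seen, the fall with Ova was by 0.46 and was not called (adjusted p = 0.0752).

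Itga6, a laminin receptor chain (chromosome 2, 71745616 to 71858416), was at 29.5 ± 4.89 CPM in DMSO Ova and 29.5 ± 2.04 CPM in iBET Ova (SD, n = 5), with a 95% interval of the log2 fold change from -0.29 to 0.29. Its values with IC, 23.7 ± 5.84 and 24.1 ± 2.83 CPM, overlapped too, with an interval of -0.27 to 0.32. Itgb1, the common partner of these chains (chromosome 8, 128685654 to 128733200), had log2 fold changes of -0.11 (SE 0.0608, adjusted p = 0.114) with Ova and -0.13 (SE 0.0607, adjusted p = 0.0682) with IC. In the second comparison all 5 mice were lower and the groups did not overlap, at 604.5 to 688.4 CPM with DMSO and 565.7 to 602.3 CPM with iBET, and the block turned it into a call (adjusted p = 0.0458). Mice A and B alone gave log2 fold changes of 0.01 with Ova and 0.003 with IC for Itgb1, neither of them called.

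Itgb7, the β chain that pairs with α4 and αE (chromosome 15, 102215995 to 102231944, minus strand), fell with Ova. It was at 111.3, 198.1, 116.7, 145.5 and 113.8 CPM in DMSO Ova and at 84.0, 91.4, 71.7, 90.1 and 81.7 CPM in iBET Ova, with no overlap. The fall was by 0.71 on the log2 scale (SE 0.149, adjusted p = 0.000445) in 5 of 5 mice. With IC the values were 110.0, 120.4, 81.9, 108.9 and 101.6 CPM with DMSO and 108.7, 109.4, 81.3, 91.0 and 74.6 CPM with iBET, with a log2 fold change of -0.17 (SE 0.149, adjusted p = 0.35). All 5 mice were lower in this comparison as well, with differences from -0.446 to -0.0109, and the groups overlapped. In 1 of 16 alternatives, edgeR with surrogate variables of sva, Itgb7 was called lower with IC (-0.27, adjusted p = 0.0235). The difference between both effects was 0.54 (SE 0.21), with the same sign in 5 of 5 mice, an unadjusted p of 0.0184 in edgeR and an adjusted p of 0.982, so it was not called.

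Itgav, the αv chain of vitronectin and TGF-β-activating receptors (chromosome 2, 83724397 to 83806916), rose with both stimuli. It was the only member called higher by edgeR with all 20 libraries and the 4 groups as the only terms. It was at 83.0, 92.7, 98.7, 95.5 and 95.4 CPM in DMSO Ova and at 115.0, 127.6, 124.3, 120.8 and 110.5 CPM in iBET Ova. With IC it was at 80.2, 86.0, 81.6, 80.9 and 76.7 CPM with DMSO and at 96.5, 107.5, 124.4, 119.0 and 126.1 CPM with iBET. The groups did not overlap with either stimulus. The rise was by 0.36 on the log2 scale with Ova (SE 0.0702, adjusted p = 0.000193) and by 0.50 with IC (SE 0.0704, adjusted p = 5.23e-06), in 5 of 5 mice.

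**Figure D3:**
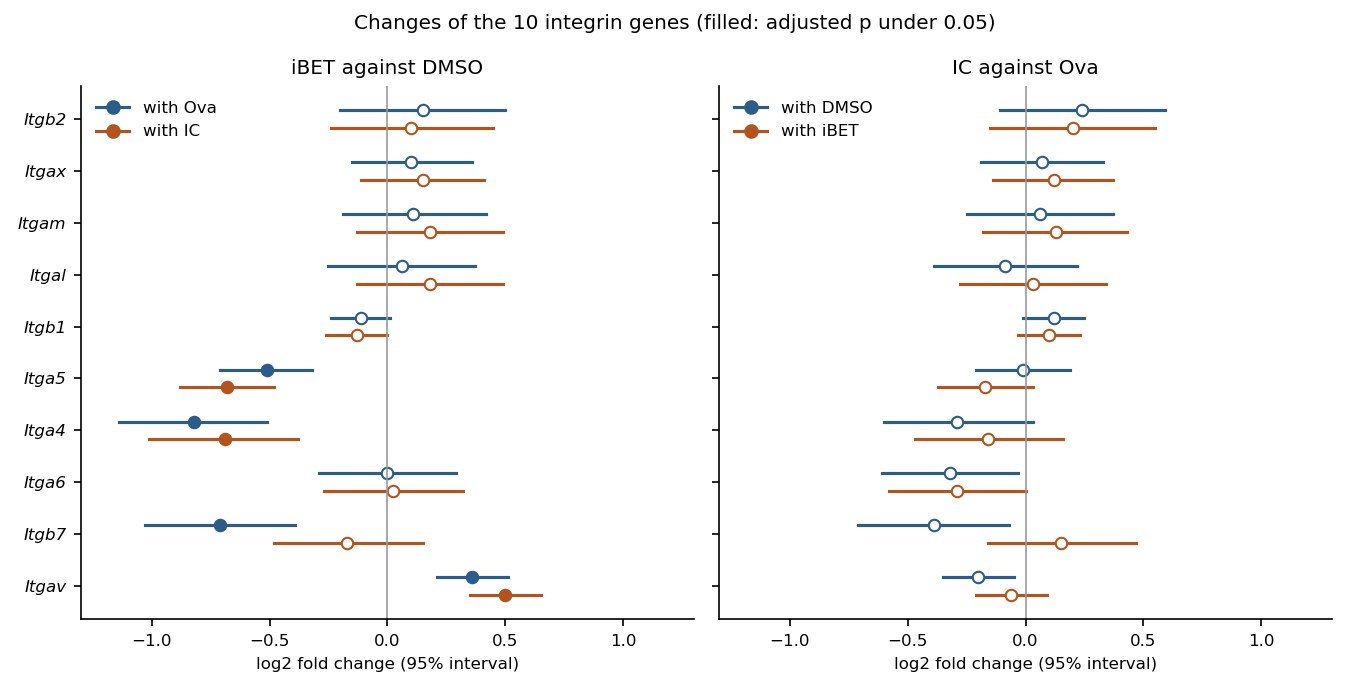
Log2 fold changes of the 10 genes with 95% intervals (edgeR, no block), iBET against DMSO on the left and IC against Ova on the right, with filled points where the adjusted p was under 0.05. The filled points are Itga4, Itga5 and Itgav with both stimuli and Itgb7 with Ova, and all points on the right are open.

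Groups did not overlap for 3 of the 10 genes with Ova (Itga5, Itgav, Itgb7) and for 4 with IC (Itga4, Itga5, Itgav, Itgb1), beside 38.0% and 42.8% of all genes tested.

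Of the other 18 integrin subunits, 9 passed the filter. Itgb3, a β partner of αv, was scarce at 2.77 ± 0.433 CPM in DMSO Ova (43 to 74 counts) and fell with iBET by 0.57 with Ova (SE 0.133, adjusted p = 0.00118) and by 0.35 with IC (SE 0.123, adjusted p = 0.0222). Itgb5, another β partner of αv, was at 190.9 ± 73.9 CPM in DMSO Ova and 120.5 ± 25.0 CPM in iBET Ova, a fall by 0.66 (adjusted p = 0.0283), while with IC its change of -0.39 did not pass (adjusted p = 0.19). Itga10, a collagen receptor chain at 0.773 CPM in DMSO Ova, rose by 0.86 with Ova (adjusted p = 0.037) and had a change of 0.49 with IC (adjusted p = 0.22).
The collagen receptor chain Itga1 was at 138.5 CPM in DMSO Ova and Itgad, a further α partner of β2, at 98.4 CPM. Neither passed the test in either comparison with iBET (log2 fold changes of Itga1 -0.05 and 0.15, of Itgad 0.36 and 0.35). The other 4 had group means of at most 3.61 CPM and were not called, namely Itga2b (log2 fold changes 0.24 and 0.27), Itga3 (0.93 and 0.22), Itgae (-0.54 and -0.26) and Itgb2l (-1.97 and -2.05, adjusted p = 0.0585 and 0.0543). With the mouse as a block Itgb2l was called lower with both stimuli (adjusted p = 0.000142 and 0.000237), Itga3 higher with Ova (adjusted p = 0.0367) and Itgb5 lower also with IC (adjusted p = 0.000996).

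Ratios of 2 transcripts within a library do not depend on library scaling, and 6 ratios were tested in 4 comparisons with an exact two-sided permutation test. None passed after adjustment over the 24 tests, where 5 libraries against 5 allow no p below 0.00794. A ratio at that floor could pass only if several others reached it too. The permutation treated libraries as independent and did not use the pairing by mouse. The log2 ratio of Itgav to Itga4 was -0.05 ± 0.30 in DMSO Ova and 1.11 ± 0.13 in iBET Ova (SD, n = 5), a difference of 1.16 in the exact permutation test (p = 0.00794, adjusted 0.0635), and it was higher in 5 of 5 mice without overlap. With IC the same ratio was 0.01 ± 0.18 with DMSO and 1.21 ± 0.12 with iBET, a difference of 1.20 (exact permutation p = 0.00794, adjusted 0.0635). The ratio of Itga6 to Itga4 differed by 0.81 with Ova and 0.75 with IC (exact permutation p = 0.00794 and 0.0159, adjusted 0.0635 and 0.0762), each in 5 of 5 mice. That of Itga5 to Itga4 differed by 0.28 with Ova and 0.03 with IC (exact permutation p = 0.0952 and 0.857).
Itgb7 to Itgb1 was lower by 0.57 with Ova in 5 of 5 mice (exact permutation p = 0.0159, adjusted 0.0762) and differed by -0.04 with IC (exact permutation p = 0.794). Among the β2 partners, Itgax to Itgam differed by -0.01 and -0.04, and Itgal to Itgam by -0.06 and 0.03, with exact permutation p from 0.714 to 0.921.

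**Figure D4:**
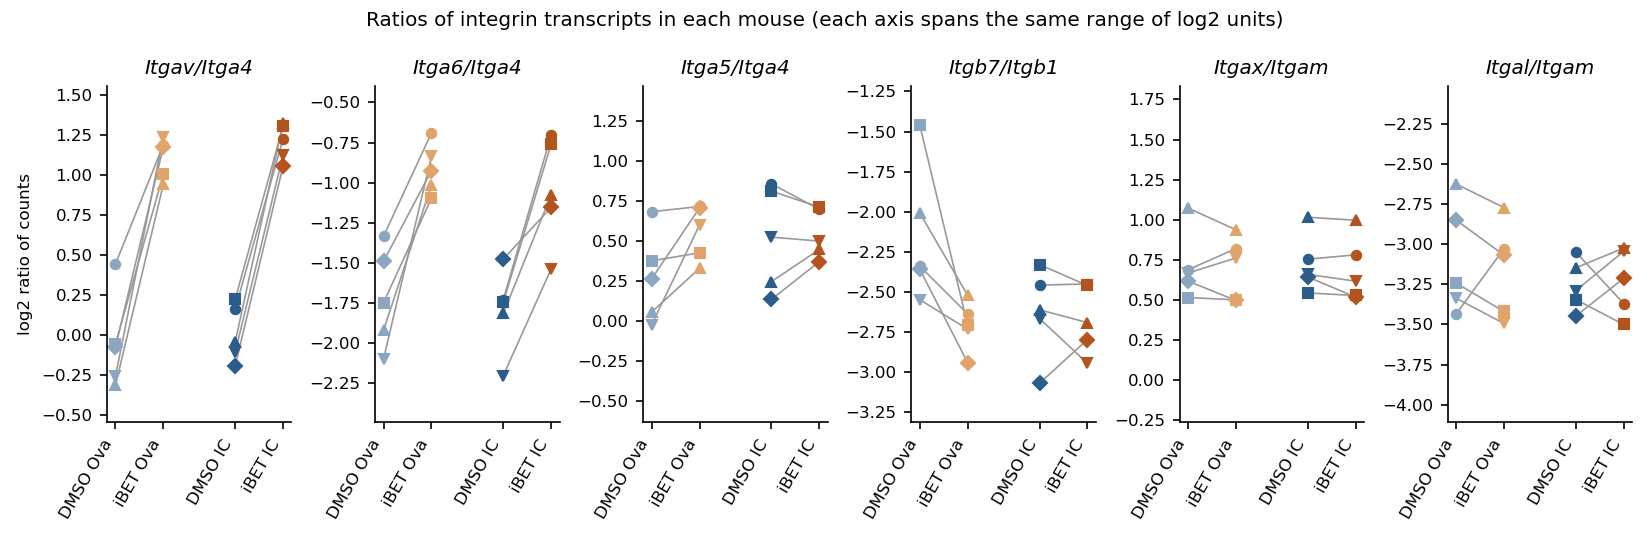
Log2 ratios of counts of 6 pairs of integrin genes in each library, DMSO joined to iBET for each mouse (circle A, square B, diamond C, triangle up D, triangle down E), Ova on the left and IC on the right of each panel. Lines for Itgav/Itga4 and Itga6/Itga4 rise in 5 of 5 mice with both stimuli, and the group means of Itgax/Itgam differ by -0.01 with Ova and -0.04 with IC.

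The second question was whether IC stimulation altered the integrins. With edgeR, 0 of the 10 genes were called for IC against Ova with DMSO, beside 20.3% of all genes, and 0 with iBET, beside 11.8%. At an unadjusted p under 0.05 there were 3 genes with DMSO (Itgav, Itgb7, Itga6) and 1 with iBET (Itga6). These comparisons reuse the libraries of the iBET comparisons, so their values are not independent of those above. The Wald test of DESeq2 called 1 gene with DMSO (Itgav, lower) and 0 with iBET. With the mouse as a block 4 integrins were called with DMSO, beside 38.1% of all genes, and 3 with iBET, beside 28.9%.

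Itgb2 was higher with IC in 5 of 5 mice with DMSO (log2 fold change 0.24, SE 0.165, adjusted p = 0.329) and with iBET (0.20, SE 0.165, adjusted p = 0.489). It was called with the block in both (0.25, adjusted p = 0.000323, and 0.20, adjusted p = 0.00344). Itgam had log2 fold changes of 0.06 and 0.13 and Itgax of 0.07 and 0.12 with DMSO and with iBET, of which only the second for Itgam was called with the block (adjusted p = 0.0401). Without TMM scaling the values with DMSO turned to -0.049 for Itgam and -0.0372 for Itgax, while that setting moved the median of all genes to -0.131 with DMSO and -0.121 with iBET.

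Itga6 was lower with IC in 5 of 5 mice with DMSO (-0.32, SE 0.137, adjusted p = 0.109) and with iBET (-0.29, SE 0.137, adjusted p = 0.182), and with the block both were called (adjusted p = 0.0103 and 0.0231). Its libraries overlapped, at 24.2 to 36.9 CPM in DMSO Ova and 17.9 to 33.5 CPM in DMSO IC. Itgb7 (-0.39, SE 0.149, adjusted p = 0.0699) and Itgav (-0.20, SE 0.0703, adjusted p = 0.0516) were lower with IC in 5 of 5 mice with DMSO, and both were called with the block (adjusted p = 0.00378 and 0.014). With iBET, Itgb7 was at 0.15 and Itgav at -0.06, and neither was called with or without the block.
For Itga4 the log2 fold changes were -0.29 and -0.16, for Itga5 -0.01 and -0.17, for Itgb1 0.12 and 0.10 and for Itgal -0.09 and 0.03, with adjusted p from 0.185 to 0.96. Outside the 10 genes, Itgb3 ranged from 2.30 to 3.39 CPM in DMSO Ova and from 4.77 to 5.97 CPM in DMSO IC, a rise by 0.91 (SE 0.126, adjusted p = 6.36e-05), and by 1.13 with iBET (SE 0.131, adjusted p = 1.13e-05). It was the only one of the 9 other subunits called in these comparisons without the block, which added Itgb5 with DMSO (-0.25, adjusted p = 0.0311).

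The third question was whether the effect of iBET differed between stimuli. No integrin was called in the interaction test, beside 5 of 12465 genes (0.0401%), and with the block 0 of 10 were called beside 0.818%. Interaction values were 0.07 for Itgam, 0.05 for Itgax, 0.12 for Itgal, 0.13 for Itga4, -0.16 for Itga5, 0.14 for Itgav, -0.02 for Itgb1, -0.04 for Itgb2, 0.54 for Itgb7 and 0.03 for Itga6. Itgb7 alone had an unadjusted p under 0.05, and its adjusted p with the block was 0.076.

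The integrins varied between mice along with the summed marker levels given above. Itgam and Itgb2 were higher in mice A and B than in mice C, D and E in all 4 groups, for Itgb2 at 2093.9 to 2783.7 CPM against 1384.9 to 1995.2 CPM. Itgax was higher in mice A and B in 3 of the 4 groups, and Itga4 was lower in 3. These sets of mice were defined after libraries were seen to lie apart, so the difference between them was not tested. Fits within 1 set are given only as alternatives, and with few mice a gene not called there says little. The part of the cell types in these differences was not tested. After the mean of each group was removed, the values of Itgb2 went with those of Itgax (r = 0.84) and Itgam (r = 0.803) over the 20 libraries, and against those of Itga4 (r = -0.715). Itga4 went with Itgav (r = 0.735) in these deviations although iBET moved the pair in opposite directions. The 20 points share 5 mice, and the sets of mice that lie apart are in all of these values.

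Over all 20 libraries, the genes whose log2 CPM was most like that of Itgb2 were Ctsa (r = 0.974), Fcer1g (0.96) and Ctsd (0.96), which encode lysosomal enzymes and the common γ chain of Fc receptors. Those nearest to Itgam were Ppp1r3b (0.942), Fndc3b (0.925) and Slc38a6 (0.922), and to Itgax Naaa (0.93), Itfg1 (0.916) and Lyz2 (0.89), of which Lyz2 is the lysozyme of myeloid cells. The nearest to Itga4 were Irf2 (0.966), Ncoa2 (0.957) and Inpp5j (0.956), and to Itga5 Med12 (0.958), Runx1 (0.956) and Papola (0.955).
Itgav was closest to Prkce (0.966), Alms1 (0.963) and Ranbp9 (0.961), and Itgb7 to Hfe (0.931), Acox3 (0.893) and Cyp4f18 (0.885). The nearest to Itgb1 were Stxbp3 (0.932), Plaa (0.881) and Zc3h12c (0.842), to Itgal Sidt2 (0.89), Stard4 (0.854) and Zfyve26 (0.845), and to Itga6 Zfp235 (0.814), Tnni3 (0.767) and Ppp3ca (0.749). These are descriptions over 20 libraries that share mice and treatments.

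Genes that act on integrins were counted in lists. Of 40 tested genes for integrin activation and adhesion adaptors, 7 rose and 20 fell with iBET and Ova, and 6 rose and 20 fell with IC, beside the 27.7% that rose and 28.9% that fell with Ova and the 27.1% and 29.0% with IC over all genes. The medians were -0.20 and -0.24, beside -0.003 and -0.005 over all genes. The members with the largest changes included the tensins Tns1 and Tns3, which link integrin tails to actin, and Dok2, an adaptor that restrains signalling. Tns1 fell from 144.3 ± 34.1 CPM in DMSO Ova to 33.1 ± 5.16 CPM in iBET Ova, a log2 fold change of -2.13 (SE 0.168, adjusted p = 2.40e-09). Tns3 fell by 1.40 (SE 0.164, adjusted p = 4.76e-07), and Dok2 by 3.32 (SE 0.11, adjusted p = 1.55e-14), from 108.3 ± 15.0 to 10.8 ± 0.901 CPM.
Bcar1 (p130Cas, a scaffold of adhesion sites) rose from 0.0984 ± 0.0779 to 1.06 ± 0.479 CPM (adjusted p = 3.51e-05), a change between very low counts. With IC the log2 fold changes were -2.33 for Tns1, -1.58 for Tns3, -2.79 for Dok2 and 3.73 for Bcar1, and all were called.

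The next list held 33 tested genes that act below integrins, among them kinases, exchange factors, phosphatases, GTPases and adaptors. Of these, 1 rose and 18 fell with Ova, where 27.7% of all genes rose and 28.9% fell. With IC, 2 rose and 16 fell, where 27.1% of all genes rose and 29.0% fell. The medians were -0.26 and -0.28, beside -0.003 and -0.005 over all genes. The Src family kinases Fgr and Src, which transmit β2 signals in myeloid cells, fell by 3.14 (SE 0.0828, adjusted p = 1.23e-15) and by 1.54 (SE 0.125, adjusted p = 3.34e-09) with Ova. Fgr was at 113.8 ± 6.26 CPM in DMSO Ova and 12.9 ± 1.48 CPM in iBET Ova. The tyrosine phosphatase Ptpn6 (SHP-1) fell by 1.25 (SE 0.085, adjusted p = 2.95e-10) and Pik3cg, the PI3Kγ catalytic subunit, fell by 1.26 (SE 0.189, adjusted p = 1.22e-05). With IC the log2 fold changes of Fgr, Src, Ptpn6 and Pik3cg were -2.95, -1.50, -1.31 and -1.20, and all were called.

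Of 24 tested integrin ligands, 4 rose and 8 fell with Ova and 4 rose and 7 fell with IC, so the shares that fell were near the 28.9% and 29.0% of all genes, and those that rose were below the 27.7% and 27.1%. The medians were -0.19 and 0.00, beside -0.003 and -0.005 over all genes. Thbs1, thrombospondin 1, fell from 3139.5 ± 1562.5 CPM in DMSO Ova to 1038.3 ± 533.8 CPM in iBET Ova, by 1.60 (SE 0.35, adjusted p = 0.000643), and by 1.12 with IC (adjusted p = 0.00938). Vcam1, the ligand of α4β1, was scarce at 1.23 ± 0.73 CPM in DMSO Ova and fell by 1.61 with Ova (SE 0.563, adjusted p = 0.0201) and fell by 1.83 with IC (adjusted p = 0.0123). Adam8 fell by 1.21 with Ova (SE 0.081, adjusted p = 2.40e-10) and by 0.93 with IC, and Icam5 rose from 0.397 to 1.08 CPM with Ova, by 1.43 (SE 0.411, adjusted p = 0.00578), and by 1.21 with IC (adjusted p = 0.039).

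**Figure D5:**
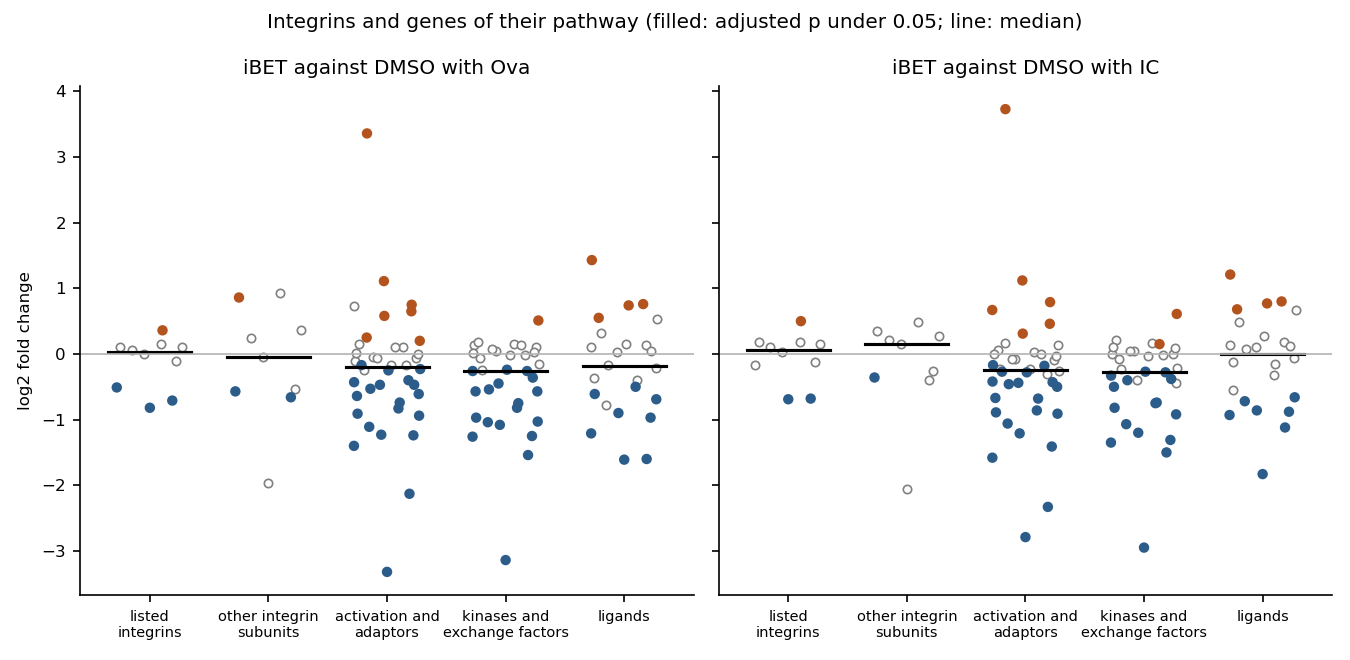
Log2 fold changes with iBET of the 10 integrin genes and of 4 lists of related genes, with Ova on the left and IC on the right, filled where the adjusted p was under 0.05 and with a line at the median of the list. The listed integrins lie between -0.82 and 0.50, and the lowest points with Ova are Dok2 at -3.32 and Fgr at -3.14.

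Markers of dendritic cells and of other cell types are given beside the 27.7% of all genes that rose and 28.9% that fell with iBET and Ova, and the 27.1% and 29.0% with IC. Of 14 tested dendritic cell markers, 0 rose and 7 fell with Ova (6 with IC), of which Ciita and Flt3 are named after their values were seen. Ciita, the master regulator of MHC class II, fell by 4.99 (SE 0.536, adjusted p = 1.57e-07) with Ova, and Flt3, a cytokine receptor of dendritic cells and their progenitors, fell by 3.66 (SE 0.535, adjusted p = 8.48e-06). Their summed level had medians of 5413.9 CPM in DMSO Ova and 5416.6 CPM in iBET Ova, and of 6588.5 CPM in DMSO IC and 6279.7 CPM in iBET IC. The largest term of that sum was Cd74, the invariant chain of MHC class II, at 2661.4 CPM in DMSO Ova and with a log2 fold change of 0.25 (adjusted p = 0.429), whereas the median change of the list was -0.78 with Ova. Of 13 macrophage and monocyte markers, 1 rose and 5 fell with Ova, and 1 rose and 3 fell with IC. The medians of their summed level were 13208.6 CPM in DMSO Ova and 14754.4 CPM in iBET Ova, and 14349.5 CPM in DMSO IC and 17182.3 CPM in iBET IC, with ranges that overlapped. The largest term of that sum was Lyz2, at 11991.5 CPM in DMSO Ova and with a log2 fold change of 0.21 with Ova (adjusted p = 0.335 in edgeR). The median change of the list was -0.22 with Ova and -0.14 with IC. Of 10 tested neutrophil markers, 1 rose and 2 fell with each stimulus, and the summed medians were 542.7 and 532.6 CPM with Ova and 574.6 and 594.8 CPM with IC. Mmp8 led that sum, with log2 fold changes of -0.11 with Ova and 0.10 with IC, neither of them called. The part of the cell types in the integrin changes was not tested.
With the mouse as a block, 1 dendritic cell marker rose and 12 fell with each stimulus, and 2 macrophage and monocyte markers rose with each stimulus while 7 fell with Ova and 6 with IC, beside 68.7% and 68.0% of all genes called in either direction. The summed levels of mast cell and basophil markers (10.5 to 46.3 CPM), eosinophil markers (40.4 to 152.7 CPM) and megakaryocyte and platelet markers (37.9 to 120.1 CPM) were low over the 20 libraries. Of their tested members, 0 rose with iBET. With Ova, 1 of 3 mast cell and basophil, 1 of 5 eosinophil and 0 of 3 megakaryocyte and platelet markers fell, where 28.9% of all genes fell. With IC, 1 of 3, 1 of 5 and 1 of 3 fell, beside 29.0%. The members that fell are named after their values were seen. Gata2 fell by 1.22 with Ova (adjusted p = 0.0023) and by 0.86 with IC (adjusted p = 0.0214), and Siglecf by 0.48 and by 0.51 (adjusted p = 0.0113 and 0.00783). The platelet chemokine Ppbp fell with IC (-1.32, adjusted p = 0.00935) and was not called with Ova (-0.55, adjusted p = 0.279).
For IC against Ova, where 20.3% of all genes were called with DMSO and 11.8% with iBET, 0 of the 40 adaptors rose and 4 fell with DMSO and 1 rose and 4 fell with iBET. Of the 33 genes in the list with the kinases and exchange factors, 2 rose and 7 fell with DMSO and 2 rose and 3 fell with iBET. Of the 24 ligands, 1 rose and 1 fell with DMSO and 2 rose and 0 fell with iBET. With the block, 7 adaptors rose and 9 fell with DMSO and 4 rose and 7 fell with iBET. The list with the kinases and exchange factors then gave 9 higher and 11 lower with DMSO and 7 of each with iBET. The ligands gave 5 higher and 3 lower with DMSO and 6 higher and 4 lower with iBET. In that fit 38.1% and 28.9% of all genes were called.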

How the data were processed

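Bulk RNA-seq of murine BMDCs was analysed in 20 libraries, 5 mice in each of 4 groups. The deposited table holds raw counts per gene, which the authors made from trimmed reads by alignment with HISAT2 (mm10) and counting with featureCounts. They also deposited signal values, which are the counts divided by the size factor of DESeq2 (checked, largest relative difference 2.22e-16). The processing notes of the submitters also name CASAVA, FastQC and Trim Galore. The strand setting of the counting, its annotation and the treatment of reads shared by several genes are not given in the sources used here.

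The low-count filter was filterByExpr and the scaling TMM. A single model of all libraries, with a term for each of the 4 groups, was fitted by quasi-likelihood (edgeR 4.0.16, R 4.3.3). Benjamini-Hochberg adjustment ran over all 12465 genes tested, at a threshold of 0.05. Standard errors are the log2 fold change divided by the root of F. CPM used TMM library sizes, log2 CPM a prior count of 2, and RPKM the union of exons in GENCODE for GRCm38. Ratios used counts plus 0.5. The scripts were tested on simulated data. The depth of 16447491 to 29245150 counts per library sets the counting precision, and errors are SDs over mice.

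The members and all lists were chosen with earlier results of these data known. All 10 integrins were named in each comparison, as was each other subunit that passed the filter and, among the lists, up to 4 genes per pathway list with the largest mean change among those called with both stimuli. Genes most alike were ranked by Pearson's r of log2 CPM.

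The titles of the libraries give a number and the group but no mouse, and the letters A to E follow the order of the numbers. Libraries of the same letter were taken to come from the same mouse. The deviations of 30 same-mouse pairs from the group means had a mean correlation of 0.524 (lowest 0.307), against -0.127 between mice. The authors' methods name DESeq2 and sva but no design. Alternatives were the mouse as a block, DESeq2 1.42.0 with and without it, other scalings, no filter, the compared groups only, 3 surrogate variables of sva 3.50.0, limma 3.58.1 on log2(deposited signal + 1), each mouse left out, and mice A and B or C, D and E only.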

Additional observations from a re-analysis of the deposited data

How the results depend on the processing

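The calls of Itga5 and Itgav with iBET held in all 16 alternatives with both stimuli, those of Itgb7 with Ova and Itga4 with IC likewise, and that of Itga4 with Ova in 15, the exception being mice A and B alone (-0.46, adjusted p = 0.0752). In edgeR the block changed further calls of single integrins only as given in the report. DESeq2 with the block also called Itgam and Itgax higher with iBET and Ova (adjusted p = 0.0346 and 0.0442), Itgb2 higher with iBET and IC (adjusted p = 0.0284) and Itgax higher for IC against Ova with iBET (adjusted p = 0.0187). The count of integrins called for iBET against DMSO with Ova, 4, became 7 with DESeq2 and the block. Surrogate variables gave 2 higher and 4 lower, and the block and mice C, D and E alone each gave 2 higher and 3 lower. Beside Itgav, edgeR with surrogate variables called Itgb2 higher with Ova (0.17, adjusted p = 0.0125). So did edgeR in mice C, D and E alone (0.27, adjusted p = 0.00558). By library size only, 1 was higher and 4 lower, and in mice A and B alone 1 was higher and 2 lower. With IC, 3 became 6 with the block, 7 with DESeq2 and the block, 5 with surrogate variables and 5 in mice C, D and E. Beside Itgav, edgeR with surrogate variables called Itgam higher with IC (0.22, adjusted p = 0.000115). In mice C, D and E alone, edgeR called Itgal higher (0.43, adjusted p = 0.0253). DESeq2 without the block and library size only each gave 1 higher and 3 lower with IC. For IC against Ova with DMSO, 0 became 4 with the block, 4 with DESeq2 and the block, 1 with DESeq2, 3 by library size only, 1 with the compared groups only, 2 with surrogate variables, 3 in mice C, D and E, and 0 to 2 with each mouse left out, 2 without mouse A (Itga4 and Itgav lower). With iBET, 0 became 3 with the block, 4 with DESeq2 and the block, 1 by library size only and 2 with surrogate variables, and in the interaction 1 (Itgb7) with DESeq2 and the block. No ratio passed under any alternative, and with a mouse left out 4 libraries against 4 cannot pass the adjusted threshold.

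Signs turned only for values that were not called. By library size only, IC against Ova gave -0.049 for Itgam and -0.0372 for Itgax with DMSO and -0.0728 for Itgal and -0.0103 for Itgb1 with iBET, and Itga6 with iBET and IC gave -0.0307. In mice A and B alone the interaction was -0.00576 for Itgam, -0.06 for Itgax, -0.37 for Itgal, -0.29 for Itga4, -0.15 for Itgav and 0.0844 for Itgb2. There, iBET gave -0.0749 for Itgal with IC, 0.0114 and 0.00267 for Itgb1 with Ova and IC and 0.21 for Itga6 with Ova, and IC gave 0.24 for Itgal and 0.21 for Itga5 with DMSO and -0.13 for Itgal with iBET. In mice C, D and E alone, iBET gave -0.0638 for Itgal with Ova and -0.0837 for Itga6 with IC, IC gave 0.002 for Itga4 and 0.0525 for Itgav with iBET, and the interaction was 0.0528 for Itga5. With surrogate variables, IC against Ova with DMSO gave 0.0532 for Itgal and 0.12 for Itga5, and the interaction of Itgb1 was 0.0166. Itga6 with iBET and Ova, near 0, became 0.0136 with the block, 0.00169 with DESeq2 and with its size factors, 0.017 with DESeq2 and the block, 0.022 without a filter, 0.00267 with the compared groups only and 0.0131 in limma.

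With each mouse left out, iBET with Ova ranged from -0.0603 to 0.12 for Itgal and -0.0898 to 0.11 for Itga6, and with IC from -0.0253 to 0.15 for Itga6. IC against Ova with DMSO ranged from -0.25 to 0.0379 for Itgal and -0.11 to 0.0644 for Itga5, and with iBET from -0.0875 to 0.11 for Itgal. The interaction ranged from -0.0021 to 0.0935 for Itgax, -0.0333 to 0.25 for Itga4, -0.0586 to 0.0149 for Itgb1, -0.12 to 0.0118 for Itgb2 and -0.0227 to 0.0645 for Itga6. The ratio Itgax/Itgam with Ova ranged from -0.0442 to 0.0227, and with IC Itgal/Itgam ranged from -0.0296 to 0.11, Itgb7/Itgb1 from -0.12 to 0.0173 and Itga5/Itga4 from -0.0209 to 0.0777. The cause of these changes was not tested. The lengths of principal transcripts were an alternative chosen after seeing the data. Itgb3, Itga10, Itgb2l, Vcam1 and Bcar1 rest on few reads, and their fold changes are the less certain for it. The interaction was not run with the compared groups only.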
